A study of Canis lupus familiaris with 18 samples.

Results

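Of 24580 genes counted in canine primary endothelial cells (CaPECs) and vascular smooth muscle cells (VSMCs), 47 were high in CaPECs of the aorta, low in CaPECs of both veins, and without such a difference in VSMCs. These 47 aorta-high genes of endothelial cells were chosen from the measured values. The lowest of the 3 aortic CaPEC samples had to reach a CPM (the count of a gene scaled to a total of 1000000 in its sample) of 5 and had to be at least 2 times the highest of the 6 venous CaPEC samples. In VSMCs, the mean aortic CPM plus 1 divided by the mean venous CPM plus 1 had to lie within a factor of 1.5 of equality. Genes restricted to endothelial cells, with at least 5 CPM in all 9 CaPEC samples and less than 2 CPM in all 9 VSMC samples, were left out, and 0 genes were lost in this way.

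The cells came from 3 abdominal vessels (the aorta, the vena cava, and the vena porta) of 3 healthy young adult male dogs and were sequenced at passage 3. There were 3 samples for each cell type and vessel, numbered 1 to 3, and 18 samples in all. No sample was treated or genetically altered, and the vessels were taken after death from dogs used in unrelated work. CaPECs were grown on gelatin in a canine endothelial growth medium and VSMCs in a medium with fetal calf serum, so that cell type and medium cannot be told apart. CaPEC samples held 6020932 to 13422177 counts and VSMC samples 7341227 to 15746769, and 5 CPM corresponds to 30.1 counts in the smallest sample. The median squared difference between replicates was 7.37 to 28.5 times what counting alone gives.

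Arteries carry blood at high pressure and veins at low pressure, and the endothelial cells that line them are known to take on arterial or venous identities during development. Notch signaling and a set of transcription factors are known to maintain the arterial state, and part of this difference is known to persist when the cells are grown outside the vessel. Smooth muscle cells of the vessel wall contract and deposit matrix, and they have a developmental history of their own. Among these cultures, a gene that differs between aorta and vein in CaPECs but not in VSMCs varies with the vessel and with the cell type or its medium. The count table gives Ensembl identifiers without symbols, and 0 of them matched the gene table at hand. The genes are thus named here by identifier, their functions are not given, and the labelled cell types were not checked against marker genes. Sequences are not printed for the same reason.

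The aortic level was at least 5 CPM in every aortic sample for 8586 genes. The factor of 2 over all venous samples was met by 67 of these. Of the 67, 20 were set aside because their VSMC ratio of aorta to veins lay outside the window, with 5 above it and 15 below it. Without the factor, the 3 aortic samples lay above all 6 venous samples in 418 of the 8586 genes. When the same rule was turned around, so that the 6 venous CaPEC samples had to lie above the 3 aortic ones, 5 genes were found (9 before the VSMC window). The turned rule asks for 5 CPM in 6 samples and not in 3, so the numbers were not tested against each other.

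**Figure D1:**
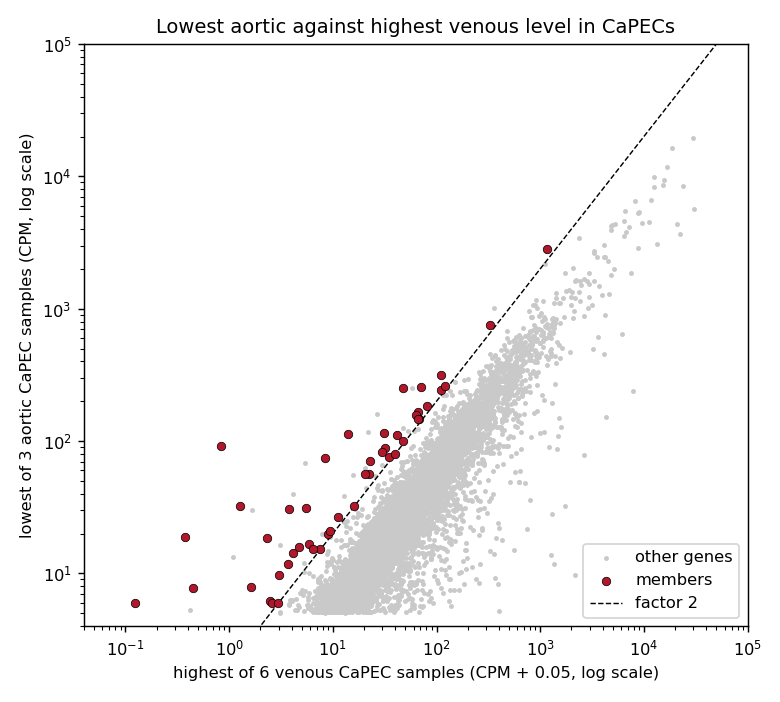
Lowest CPM among the 3 aortic CaPEC samples against the highest CPM among the 6 venous CaPEC samples, both on log scales, for the 8586 genes with at least 5 CPM in every aortic sample. The 47 members, in red, lie above the dashed line of factor 2, and most of the other genes lie below it.

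The gene with the widest gap was ENSCAFG00000010107. It had 153 CPM in aorta 1, 91.3 in aorta 2, and 113 in aorta 3. In the vena cava samples it had 0.789, 0, and 0.507 CPM, and in the vena porta samples 0.149, 0, and 0.25 CPM. The lowest aortic sample was thus 116 times the highest venous one. In VSMCs it was present in every sample, from 7.20 to 53.8 CPM with a median of 14.7. Only the venous CaPECs were near 0 for this gene, and VSMCs of the same vessels were not.

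ENSCAFG00000011069 came next. It had 39.9, 18.8, and 26.1 CPM in aorta 1 to 3, which rest on 113 to 338 counts. Over the 6 venous CaPEC samples it had 2 counts in all, both in vena porta 2, and over the 9 VSMC samples it had 1 count. This gene was thus near 0 everywhere but in the aortic endothelial cells, in contrast to ENSCAFG00000010107.

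At the other edge of the rule, ENSCAFG00000030412 had 151, 80.6, and 105 CPM in the aortic samples, 29.2, 24.4, and 21.5 in the vena cava, and 39.9, 35.7, and 32.4 in the vena porta. ENSCAFG00000009181 had 74.1, 32.6, and 40.1 CPM in the aortic samples, 15.9, 7.55, and 14.3 in the vena cava, and 8.49, 5.51, and 2.75 in the vena porta. Neither of these genes was silent in the veins. The ratio of the lowest aortic to the highest venous sample was 2.02 to 2.11 in the 5 members just inside the rule. It was 1.95 to 1.99 in the 5 genes just outside it.

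Over the 47 members, this ratio had a median of 2.75, with venous values below 0.5 CPM set to 0.5. It reached 3 in 19 members, 5 in 12, and 10 in 5. The ratio of the mean aortic to the mean venous CPM had a median of 6.46 and was at least 3.67 in the 45 members with more than 3 venous counts in all. In edgeR's fit over 9 CaPEC samples, the median log2 fold change of aorta over veins was 2.87 in the members and -0.03 over the 11696 genes tested. These values were used to choose the members and carry no test.

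The venous level divided the members. In 15 members all 6 venous CaPEC samples were below 5 CPM, and in 4 of these all were below 1 CPM. In 14 members all 6 venous samples had at least 5 CPM. The other 18 lay between. Most members were thus lower in the venous CaPECs without being absent from them. The median member had 60.2 to 82.6 CPM in the aortic samples, 2.75 to 11.5 CPM in the venous CaPEC samples, and 4.99 to 9.45 CPM in the VSMC samples.

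**Figure D2:**
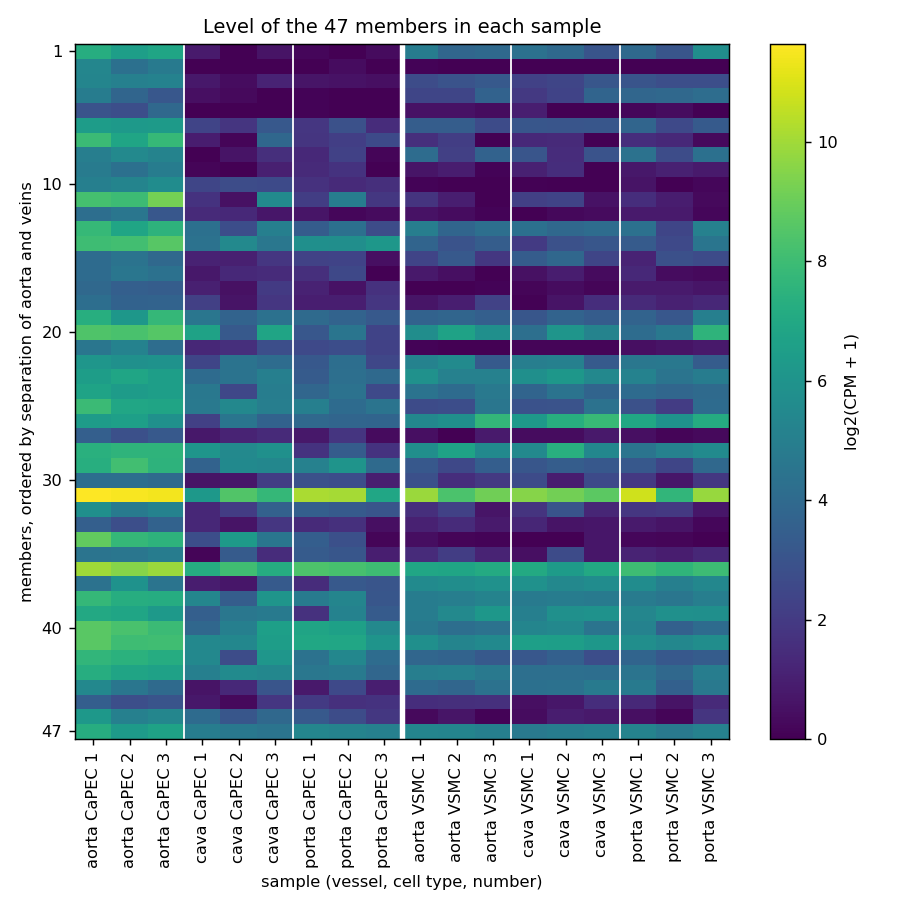
Level of the 47 members (lines, ordered from the widest to the narrowest gap between aorta and veins) in each of the 18 samples (columns), as log2 of CPM plus 1. The 3 aortic CaPEC columns are brighter than the 6 venous ones in every line, and the VSMC columns hold both dark and bright lines.

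The members together held 0.784% to 0.957% of all counts in aortic CaPECs, 0.0774% to 0.215% in venous CaPECs, and 0.0884% to 0.270% in VSMCs. A single gene, ENSCAFG00000008869, held a large part of this. It had 3199.5, 2935, and 2809 CPM in the aortic samples. In the vena cava it had 73.0, 354, and 216 CPM, and in the vena porta 1164, 1074, and 119 CPM. The vena porta samples 1 and 2 thus stood well above the other 4 venous samples, and still below all 3 aortic ones. Without this gene, the summed level was 4904 to 6373 CPM in aortic CaPECs and 655 to 1129.6 CPM in venous CaPECs.

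The 3 aortic samples differed from each other by a median coefficient of variation of 25.2% over the members, from 6.68% to 67.2%. The highest of the 3 was aorta 1 in 27 members, aorta 2 in 10, and aorta 3 in 10. With edgeR's normalization (TMM), aorta 1 was the highest in 30. The most variable member was ENSCAFG00000001565, with 19.8, 60.0, and 21.5 CPM in aorta 1 to 3.

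The rule was then applied without the samples of one number, and the genes it chose were looked up in the CaPECs that had been left out. The labels number the samples and name no dog, and a shared number is taken here to stand for the same dog. In CaPECs, same-numbered samples deviated from their group means no more alike than others did (mean correlation -0.03 against 0.01). Without number 1, the rule chose 64 genes, and in 58 of them the left-out aortic sample was at least 2 times the higher of its own veins. Without number 2 it chose 82 genes and 58 reached this bar, and without number 3 it chose 84 genes and 54 did. Of the chosen genes with at least 5 CPM in the left-out aorta, 57 of 63 reached the bar in number 1 (90.5%), 55 of 75 in number 2 (73.3%), and 52 of 80 in number 3 (65%). Over all genes with at least 5 CPM in that aorta, the shares were 4.05%, 3.95%, and 3.28%. The median log2 ratio of the left-out aorta to its higher vein was 2.24, 1.52, and 1.33 in the chosen genes and -0.31, -0.26, and -0.18 over all genes. The genes chosen from a pair of numbers thus had, for the most part, the same difference in the left-out number. All VSMC samples were kept in this step, and no test was made.

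Whether the level that remained in the veins differed between vena cava and vena porta was tested, since the rule does not set the order of the veins. A gene was called when edgeR's quasi-likelihood test gave an adjusted p-value below 0.05 and the fold change exceeded 0.4 in either direction on the log2 scale. By this measure 0 of the 47 members differed, against 1 of the 11696 genes tested (0.00855%). Before adjustment, 12 members (25.5%) and 11.7% of all genes had a p-value below 0.05. All 9 CaPEC samples entered this fit, and some members passed its filter on low counts through their aortic values. On the 6 venous samples alone, 40 of the 47 members passed the filter, 0 were called, and 8 of the 40 and 8.99% of all genes had an unadjusted p-value below 0.05. Over all 9 samples, DESeq2's Wald test called 4 members, 3 higher in the vena cava and 1 higher in the vena porta (8.51%, against 2.97% of all genes). In 4 members every vena cava sample lay above every vena porta sample (8.51%, against 9.82% of all genes), and in 2 members the reverse was found (4.26%, against 5.1% of all genes). The rule also caps the highest venous sample, which limits how far the veins can differ.

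The smallest p-value belonged to ENSCAFG00000002987. It had 66.0, 43.9, and 56.6 CPM in the vena cava and 2.24, 9.40, and 2.25 CPM in the vena porta, next to 166, 190.3, and 191 CPM in the aorta. The veins did not overlap. On the log2 scale the vena cava was higher by 3.57 ± 0.51 (standard error), with an edgeR adjusted p of 0.113. Its level thus stepped down from aorta to vena cava to vena porta. With DESeq2's Wald test its adjusted p-value was 4.13e-10. Over the alternatives run, its adjusted p-value ranged from 4.13e-10 to 1 and the fold change kept its direction.

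ENSCAFG00000015410 was also higher in the vena cava, with 4.47, 5.45, and 5.07 CPM against 2.16, 1.62, and 1.999 CPM in the vena porta (a log2 difference of 1.28 ± 0.24, edgeR adjusted p = 0.247). It was next to absent from VSMCs, at no more than 0.545 CPM. ENSCAFG00000010953 leaned the other way, with 19.99, 43.5, and 23.2 CPM in the vena cava and 54.8, 52.4, and 70.8 CPM in the vena porta (a log2 difference of -1.10 ± 0.30, edgeR adjusted p = 0.252). Its vena cava sample 2 lay closest to the vena porta. DESeq2 called both of these genes (adjusted p = 0.0148 and 0.0307). Both were also called by edgeR without vena cava sample 2, a choice made after seeing the data (adjusted p = 0.0307 and 0.00821). Neither was called by edgeR with a block for the replicate number (adjusted p = 0.4285 for both). The same held on the 6 venous samples alone (edgeR adjusted p = 0.454 for both).

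**Figure D3:**
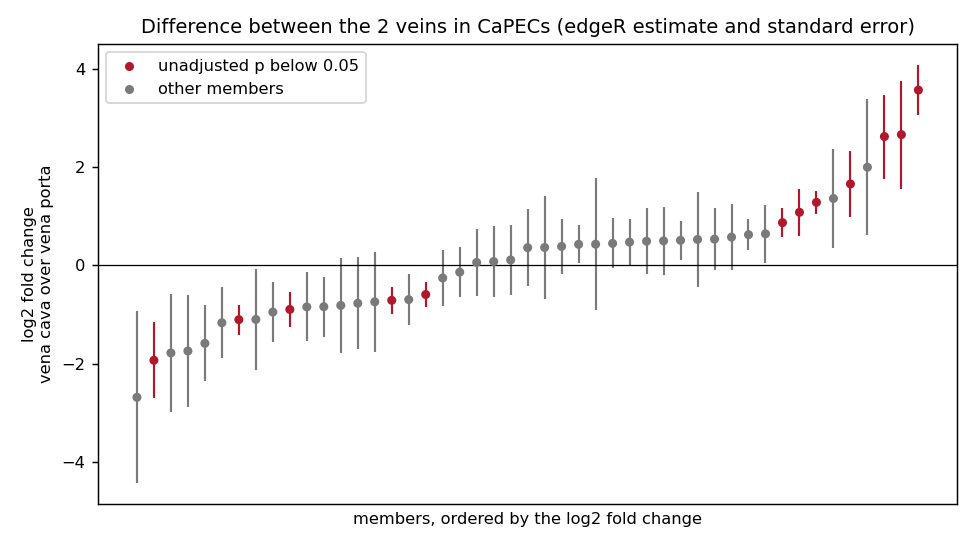
Log2 fold change of vena cava over vena porta in CaPECs for each of the 47 members, ordered by size, with bars of 1 standard error from edgeR. The values run from -2.69, which rests on 2 counts, to 3.57, and the 12 members with an unadjusted p-value below 0.05, in red, are found on both sides of 0.

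Vena cava CaPEC samples 1 and 3 stood apart from sample 2. On the first principal component of the CaPEC samples (42.8% of the variance) they lay at -62.2 and -54.9, while sample 2 was at 16.9 and the vena porta samples were at 17.6 to 34.0. In 14 members (29.8%, against 10.4% of all genes tested) both of these samples were at least 2 times sample 2, and in 2 members (4.26%, against 6.8%) sample 2 was at least 2 times both. No minimum level in the vena cava was asked for, and some of these members rest on few counts there. ENSCAFG00000010107, for example, had 6, 0, and 5 counts in vena cava 1 to 3. Members and other genes were not matched for level, so the shares are a description. Without vena cava sample 2, 5 members differed between the veins (7.76% of all genes tested then did so). Without samples 1 and 3 the vena cava has 1 sample, which the fit takes to vary like the other groups, and edgeR called 0 members and 1 of all genes (15 members and 4.29% of all genes had an unadjusted p-value below 0.05). The rule itself chose 96 genes without samples 1 and 3 and 55 without sample 2. All 47 members were among them in both cases, which says little, since leaving out venous samples cannot raise the highest one. The part of these samples in the result was not tested further.

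Most members were not restricted to endothelial cells. In 19 members all 9 VSMC samples had at least 5 CPM, in 8 members all were below 1 CPM, and the other 20 lay between. The VSMC window adds 1 to each mean, so a gene near 0 in VSMCs lies close to a ratio of 1 by construction. In the 19 members, the median of the mean levels was 119 CPM in aortic CaPECs, 30.1 in venous CaPECs, and 31.9 in VSMCs. In the 8 members it was 20.4, 1.26, and 0.264 CPM. Fewer cells that express a gene and less RNA of it per cell cannot be told apart in such samples.

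In 43 of the 47 members (91.5%, against 22.4% of 12288 genes) the 3 aortic CaPEC samples lay above all 9 VSMC samples, and in 34 (72.3%, against 4.28%) they were at least 2 times as high. The rule chose high aortic CaPEC values, so these counts carry no test. In the 4 others they overlapped, and in 2 of these the VSMC mean was the higher one. ENSCAFG00000013490 had 82.6, 93.5, and 56.5 CPM in the aortic CaPECs, 3.68 to 22.1 CPM in the venous CaPECs, and 42.0 to 231 CPM in VSMCs with a median of 122. ENSCAFG00000001565, named above for its spread, had 0.629 to 8.93 CPM in venous CaPECs and 32.0 to 58.9 CPM in VSMCs with a median of 48.9. For both genes the venous CaPECs were the low group. The aortic CaPECs lay within the VSMC range for ENSCAFG00000013490. For ENSCAFG00000001565, aorta 1 and 3 lay below all VSMC samples and aorta 2 lay just above them.

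The VSMC samples lay above all venous CaPEC samples in 6 members (12.8%, against 3.3% of 12288 genes), ENSCAFG00000010107, ENSCAFG00000013490, and ENSCAFG00000001565 among them. They lay below all of them in 3 members (6.38%, against 11.9% of these genes), which include ENSCAFG00000015410 and ENSCAFG00000009181. In the other 38 the ranges overlapped. Since the venous CaPEC level was used by the rule, these counts are a description.

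**Figure D4:**
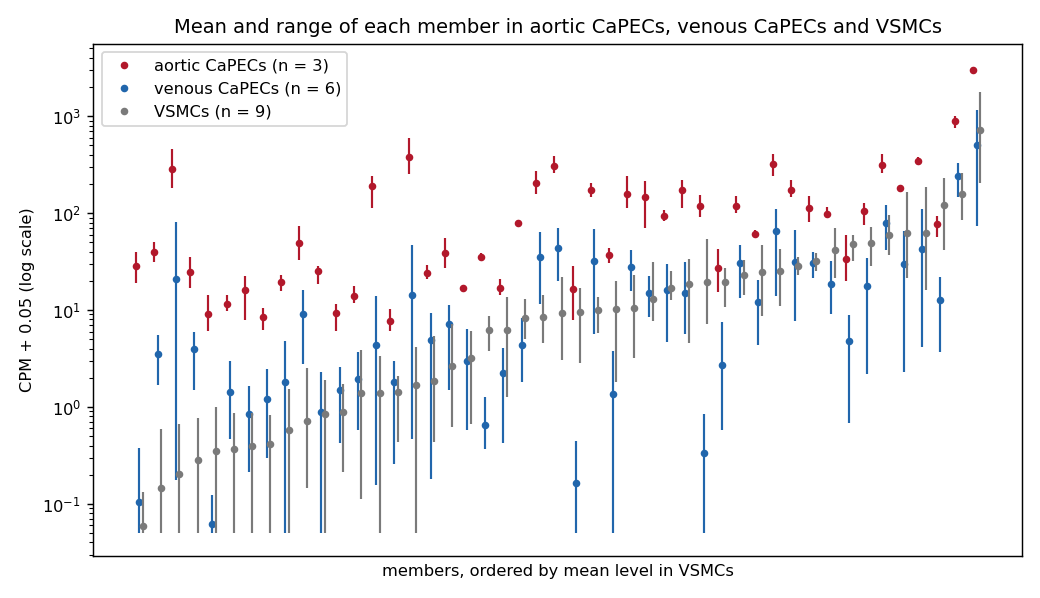
Mean (point) and range (line) of each of the 47 members in aortic CaPECs, venous CaPECs, and VSMCs, as CPM plus 0.05 on a log scale, ordered by the mean in VSMCs. The aortic range lies clear of the venous CaPEC range in all 47, while the VSMC range reaches the aortic range in 4 members.

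In VSMCs the rule asked for no difference between aorta and veins on the means, and 37 of the 47 members had enough counts for a fit. Their log2 fold change of aorta over veins ran from -0.67 to 1.01 with a median of 0.31, against -0.01 over the 11484 genes tested. Without the TMM factors, as the rule has it, all of these values shift by -0.16. The median standard error was 0.50, so the window does not exclude a smaller difference in a single gene. Of these 37 members, 1 had all aortic VSMC samples above the venous ones (1.61% of all genes) and 0 had them all below (6.02% of all genes), and the rule used these values.

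The veins were compared in VSMCs as well. By edgeR's quasi-likelihood test, 0 of the 37 members differed between vena cava and vena porta (0.00871% of all genes did). Before adjustment, 4 members (10.8%) and 5.19% of all genes had a p-value below 0.05, and DESeq2 called 1 member (2.7%, against 0.592% of all genes). The veins did not overlap in 2 members with higher vena cava levels (6.84% of all genes) and in 2 with higher vena porta levels (3.36% of all genes). A block for the replicate number gave 2 called members (5.41%, against 0.496% of all genes), both higher in the vena porta. ENSCAFG00000008395 was one of them. It had 135, 84.2, and 130.3 CPM in vena cava VSMCs and 257, 196, and 250.3 CPM in vena porta VSMCs. These did not overlap, and the log2 difference of vena cava over vena porta was -1.07 ± 0.24 (edgeR adjusted p = 0.330 without the block and 0.0118 with it). ENSCAFG00000003105, the other, had 7.49, 1.76, and 6.83 CPM in vena cava and 20.02, 5.50, and 18.5 CPM in vena porta VSMCs, higher in the vena porta within each number (edgeR adjusted p = 0.0147 with the block). ENSCAFG00000005873 leaned toward the vena cava, at 94.7, 90.5, and 71.0 CPM against 52.2, 40.3, and 52.0 CPM, but was not called (a log2 difference of 0.74 ± 0.20, edgeR adjusted p = 0.547 without the block and 0.0518 with it).

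The numbered VSMC samples differed from each other in 9 of the 37 members (24.3%), by edgeR's quasi-likelihood test with the vessel in the model and an adjusted p-value below 0.05. Over all 11484 genes tested this share was 6.44%. Before adjustment, 20 members (54.1%) and 22.1% of all genes had a p-value below 0.05. The rule used VSMC means over the numbers and so does not set this difference. Members were not compared with other genes of the same level or spread.

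Among the 3 clearest members, number 3 stood out in ENSCAFG00000015258 and ENSCAFG00000000206, and number 2 in ENSCAFG00000003105. ENSCAFG00000015258 was low in number 3, at 8.94, 8.69, and 9.45 CPM in aorta, vena cava, and vena porta, against 23.6 to 34.8 CPM in number 1 and 24.7 to 46.4 CPM in number 2 (adjusted p = 0.00119 from edgeR). ENSCAFG00000003105 was low in number 2, at 3.59, 1.76, and 5.50 CPM, against 7.49 to 20.02 CPM in number 1 and 6.83 to 18.5 CPM in number 3 (adjusted p = 0.00154 from edgeR). ENSCAFG00000000206 was high in number 3, at 22.8, 20.2, and 15.9 CPM, against 5.35 to 6.54 CPM in number 1 and 3.16 to 6.93 CPM in number 2 (adjusted p = 0.00224 from edgeR). In none of these genes did the number that stood out overlap the other two.

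Among the 9 members, the highest mean was in number 1, 2, and 3 for 3 members each, and the lowest was in number 3 for 4 members and in number 2 for 4. The samples of a single number lay all above or all below the other 6 in 8 of the 9 members and in 9 of the 37 tested (16.2% of all genes). The 9 were chosen by a test on these same values, so the 8 of 9 is a description. Number 3 was apart and low in 4 of the 9 and apart and high in 1. Number 2 was apart and low in 2 and high in 1, and number 1 was apart and low in 1. A member can count for more than 1 number. The count of called members rests on which numbers are kept. It was 9 of 35 members without number 1 (9.02% of all genes), 3 of 36 without number 2 (1.15% of all genes), and 1 of 37 without number 3 (1.21% of all genes). The labels do not say whether a VSMC number and the same CaPEC number stand for the same dog.

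**Figure D5:**
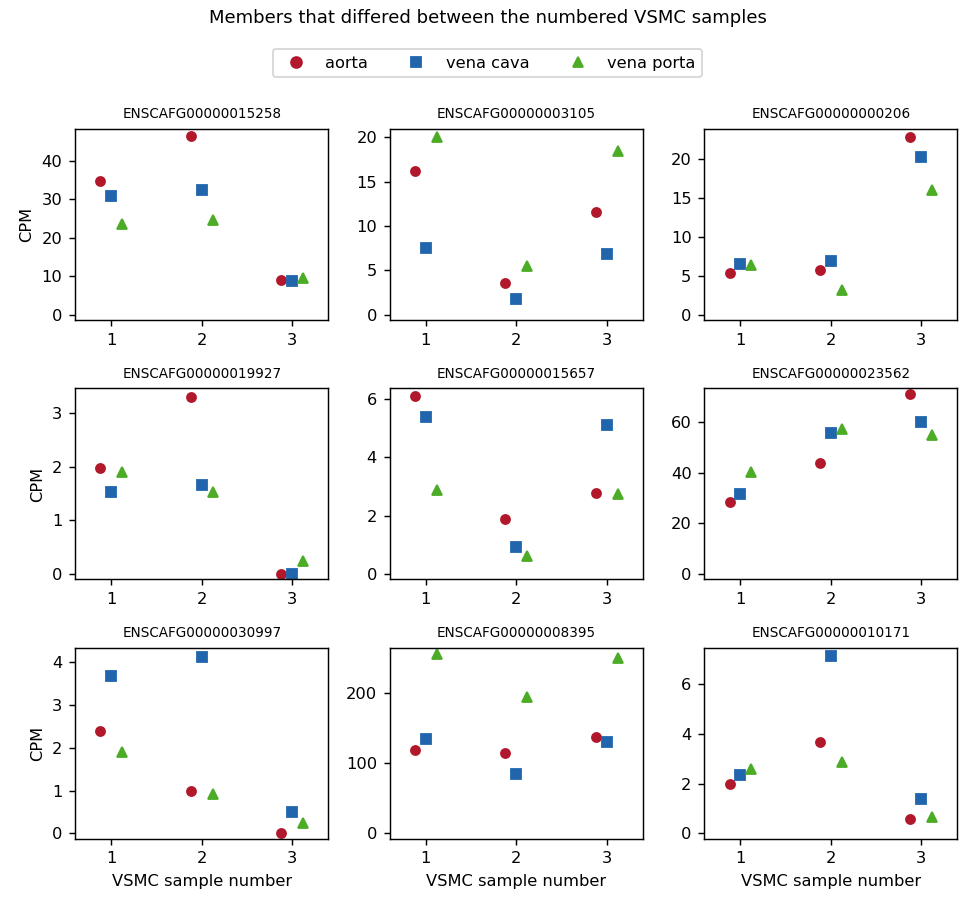
CPM in the 9 VSMC samples of the 9 members that differed between the numbered samples, in panels ordered by p-value, with the sample number on the horizontal axis and the vessel as the symbol. In the first panel the number 3 samples lie near 9 CPM in all vessels, below the others, and in the third panel they lie above the others.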

How the data were processed

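Polyadenylated RNA of 9 CaPEC and 9 VSMC samples was sequenced as single-end reads of 75 bases from a directional library. Reads were mapped by the authors with STAR 2.4.2a (canFam3) and assigned to genes with HTSeq-count 0.6.1p1 in union mode, and raw counts without normalization were deposited. The annotation release and strand setting of the counting are not given in the sources used here, so overlapping and antisense genes cannot be told apart. CPM has no length correction, and levels are compared between samples and not between genes.

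From the deposited counts, CPM was computed with the column totals, as the rule asks. Tests used edgeR 4.0.16 (R 4.3.3, TMM, filterByExpr with a minimum count of 10, glmQLFit, glmQLFTest) over all genes, with Benjamini-Hochberg adjustment. Standard errors were derived from the F statistic. DESeq2 1.42.0, its size factors, no filter, the replicate number as a block, and leaving out each number were alternatives. The tests were tested on simulated data. P-values measure the spread between these cultures.

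Same-numbered samples were taken to come from the same dog, since the study took all vessels from 3 dogs and the CaPEC columns share a code across vessels. Deviations of same-numbered samples from their group means correlated across genes by -0.304 to 0.235 in CaPECs and by 0.0934 to 0.522 in VSMCs (9 pairs each).

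The members and lists were chosen with earlier results of these data known. The gene, marker, and pathway lists could not be used, since 0 of 24580 identifiers matched the RefSeq gene table (UU_Cfam_GSD_1.0). By rule, the 2 members with the largest and the 2 with the smallest ratio of lowest aortic to highest venous CPM (venous values below 0.5 CPM set to 0.5) are named. The other identifiers were chosen after their values were seen, for their p-value, spread, or level.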

Additional observations from a re-analysis of the deposited data

Results flagged for a closer look

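For the 15 genes named by identifier, and for the summed level of the members, the highest and the lowest sample were set against the other samples with Dixon's test in the 6 venous CaPEC and the 9 VSMC samples. Of 32 such groups, 6 held a sample far from the others. The test's rate of 1 in 20 holds for normally distributed values, which CPM near 0 are not. Most of these genes were also chosen after their values were seen, so this count was not set against chance. In VSMCs, ENSCAFG00000008869 was at 1763 CPM in vena porta 1 (next highest 947), ENSCAFG00000010107 at 53.8 CPM in vena porta 3 (next highest 28.5), ENSCAFG00000009181 at 2.50 CPM in vena porta 3 (next highest 0.930), and ENSCAFG00000015410 at 0.545 CPM in vena porta 1 (next highest 0.161). ENSCAFG00000011069 was at 0.324 CPM in CaPECs of vena porta 2 and at 0.0822 CPM in VSMCs of aorta 1, with the other samples at 0, and these rest on 2 counts and 1 count. All 4 of the former are vena porta VSMC samples. In none of the 15 genes did the difference between the veins run in opposite directions in CaPECs and VSMCs in every number.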

How the results depend on the processing

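The number of members was 47. It was 86 with a factor of 1.5, 19 with a factor of 3, 27 with a narrower VSMC window, 64 to 84 without one number, and 96 without vena cava CaPEC samples 1 and 3 (chosen after seeing the data). In the 7 other settings it stayed within 1.5 times. With TMM scaling it was 51, of which 43 were members, and the 4 that left did so through the VSMC window. Between the veins in CaPECs, 0 members were called, 4 with DESeq2, 0 to 5 without one number (5 without number 2, where 5.37% of all genes were called), 5 without vena cava sample 2 (chosen after seeing the data), and 0 with the replicate block. In VSMCs 0 were called, 1 with DESeq2, 2 with the replicate block, and 0 without each number. The block changed no other call. Between the numbered VSMC samples 9 of 37 were called, 15 of 47 tested without a filter (7.5% of all genes), 2 without the vessel in the model (1.95%), and 1 to 9 without one number. The cause of these changes was not tested. When the left-out number 3 only had to be above its higher vein, 82 genes passed in place of 54. Of 122 values for named genes under an alternative, 107 did not change call or reverse, 10 gained and 4 lost the call, and 1 reversed: ENSCAFG00000010107 between the veins, at -3.48 (log2) without vena cava samples 1 and 3, when the vena cava is at 0, against 1.36 with all samples. A gene near 5 CPM rests on few counts, which limits its precision in the smaller samples.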
